A study of Mus musculus with 17 samples.

Results

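The 10 transcription factors *Meox1*, *Runx1*, *Runx2*, *Scx*, *Sox9*, *Twist1*, *Prrx1*, *Snai1*, *Snai2* and *Zeb2* were followed day by day in cardiac fibroblasts (CFs) after myocardial infarction. They were chosen by name, as factors linked to fibroblast activation and to the mesenchymal state, and are 10 of the 31053 genes of the count table. The choice was made with earlier results of these data known. Counts of members beside shares of all genes are therefore a description. All 10 were among the 14030 genes that had at least 10 counts in at least 3 libraries and were tested. The cells came from the hearts of C57BL/6 mice of the genotype Collagen1a1-GFP+, aged 8 to 10 weeks, in which the left anterior descending coronary artery had been ligated. CFs were taken as cells with GFP and without CD31, an endothelial protein, or CD45, a leukocyte protein. GFP was driven by the *Col1a1* promoter, so the sort itself selected for collagen expression. Poly-A RNA was counted at its 3′ ends by MARS-seq in 17 libraries, 3 each at 1, 2, 4 and 6 days post-infarction (dpi), 4 at 3 dpi and 1 at 5 dpi. All animals were infarcted, no uninjured heart was analysed here, and each change is therefore given against 1 dpi or between later days.

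After an infarct, resident CFs divide, deposit collagen and acquire contractile proteins, and this activation is driven by transcription factors that are also used in the embryo. RUNX1 and RUNX2 are runt domain factors, known from blood and bone, which bind DNA together with CBFβ. Scleraxis (SCX) and TWIST1 are basic helix-loop-helix factors that bind E-box sequences as dimers with E proteins such as TCF3, and ID proteins hold the E proteins away from them. SNAI1, SNAI2 and ZEB2 are zinc-finger repressors of E-boxes, known for switching off E-cadherin in epithelial-mesenchymal transition. SOX9 is the leading factor of cartilage, and MEOX1 and PRRX1 are homeobox factors of the embryonic mesoderm and limb mesenchyme.

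By edgeR, 4 of the 10 members changed over the days, in a test that 15.0% of all genes tested passed. *Runx1* rose at 3 dpi and was still above 1 dpi at 6 dpi. Its calls at 3 dpi, against 1 and against 2 dpi, were each lost with 1 library left out. *Twist1* passed the test against 1 dpi at 3 dpi, a call that was lost under several alternatives. *Scx* rose at 4 dpi and had its highest level in the 5 dpi library. *Snai1* was highest at 3 dpi and lowest at 6 dpi, and its call over the time course was also lost under some alternatives. The other 6 members did not pass edgeR's test of the time course.

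Promoter sequences are shown for the members that changed, from RefSeq's table on GRCm38.p6. Windows were matched for 6 of the 10 members, and no promoter of *Meox1*, *Scx*, *Sox9* or *Snai2* was analysed here. Each run is the 250 bases before an annotated start, written 5′ to 3′ on the strand of the gene. Capitals mark matches to 4 motifs searched on both strands, namely CAGGTG (the E-box of the SNAI and ZEB repressors), CATCTG (an E-box of TWIST1 and SCX dimers), TGTGGT (the RUNX core) and TGANTCA (AP-1, the Fos and Jun site). No match in the 4 runs overlaps another.
*Runx1*, distal start, chr16:92826075-92826324, minus strand: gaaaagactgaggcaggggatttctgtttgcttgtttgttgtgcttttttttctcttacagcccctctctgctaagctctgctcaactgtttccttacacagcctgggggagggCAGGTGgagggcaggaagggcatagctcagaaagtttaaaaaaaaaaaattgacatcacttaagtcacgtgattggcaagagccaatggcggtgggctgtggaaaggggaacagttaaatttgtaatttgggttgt
*Runx1*, proximal start, chr16:92697330-92697579, minus strand: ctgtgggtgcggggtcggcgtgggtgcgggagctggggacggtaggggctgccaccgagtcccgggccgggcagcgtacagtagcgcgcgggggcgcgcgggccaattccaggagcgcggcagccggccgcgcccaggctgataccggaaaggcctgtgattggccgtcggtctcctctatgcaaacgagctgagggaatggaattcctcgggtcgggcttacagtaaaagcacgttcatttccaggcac
*Twist1*, chr12:33957421-33957670, plus strand: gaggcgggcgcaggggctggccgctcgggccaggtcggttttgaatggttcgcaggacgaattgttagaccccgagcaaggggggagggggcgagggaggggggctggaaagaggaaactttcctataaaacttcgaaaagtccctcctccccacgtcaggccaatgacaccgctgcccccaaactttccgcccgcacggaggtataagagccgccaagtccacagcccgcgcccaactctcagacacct
*Snai1*, chr2:167537945-167538194, plus strand: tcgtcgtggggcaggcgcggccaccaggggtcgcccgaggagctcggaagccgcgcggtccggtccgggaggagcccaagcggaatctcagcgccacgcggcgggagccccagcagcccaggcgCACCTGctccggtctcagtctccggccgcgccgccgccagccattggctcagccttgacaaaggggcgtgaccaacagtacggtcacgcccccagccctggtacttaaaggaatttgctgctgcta

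CAGGTG was found once in the distal window of *Runx1*, starting 136 bases before the start, and once in that of *Snai1* on the opposite strand, 126 bases before the start. The same letters were in 17.2% of the 32851 windows of this length, so a match is common. The E-box of TWIST1 and SCX was in 14.4% of all windows, the RUNX core in 14.0% and the AP-1 motif in 6.75%, and none of these occurred in the 4 windows shown. The base composition of the 2 *Runx1* windows differed, with 45.6% G or C and 2 CpG in the distal and 67.6% and 27 CpG in the proximal window. The *Snai1* window had 70.0% G or C and 27 CpG and the *Twist1* window 62.4% and 18 CpG, against a median of 52.4% G or C over all windows. Counts at the 3′ end do not show which start of *Runx1* was used.

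Some features of the libraries bear on every comparison. Total counts ranged from 8021815 to 22029938, and a floor of 3 counts was at 0.136 to 0.374 CPM (a read count scaled by the size of the library), for counting error only. The summed level of 9 fibroblast markers was 14400 to 25800 CPM at 1 dpi and 25900 to 35600 CPM at 2 dpi. It was 23700 to 35000 CPM at 3 dpi, 25900 to 37000 CPM at 4 dpi and 25200 CPM in the 5 dpi library. At 6 dpi it was 32700 to 36200 CPM, and at 2, 4 and 6 dpi it did not overlap with 1 dpi. At 6 against 1 dpi edgeR called 2 of the 9 higher, *Col1a1* (log2 2.39) and *Col1a2* (1.41). It called 2 lower, *Pdgfra* (-1.2) and *Ddr2* (-0.96), where of all genes 6.91% were higher and 5.21% lower. From 1 to 6 dpi the mean of *Col1a1* rose from 1830.86 to 9588.5 CPM and that of *Col1a2* from 1920.86 to 5094.15 CPM. The sum therefore includes the rise of these collagens and is not a measure of fibroblast content alone. The part of the shift in this sum in the members' levels was not tested. *Ptprc*, which encodes CD45, reached at most 2.75 CPM and *Pecam1*, which encodes CD31, at most 12.8 CPM. The sum of 7 endothelial markers was 5.96 to 58.8 CPM at 3 dpi, with the highest in replicate 3, and 3.51 to 16.9 CPM at the other days, and *Egfl7* was called higher at 3 than at 1 dpi (log2 2.44, edgeR adjusted p = 0.028). The part of endothelial RNA in the 3 dpi levels was not tested. *Xist*, a transcript of the inactive X chromosome, was above the summed Y-linked genes in replicate 1 of 1 dpi and in every library of 4 and 6 dpi. Y-linked genes were above *Xist* in the other 2 libraries of 1 dpi and in all of 2, 3 and 5 dpi. The comparison of 4 with 3 dpi is therefore also one between these patterns, which cannot be told apart from the day, while 3 against 2 and 6 against 4 dpi each stay within a pattern. For *Runx1*, *Scx* and *Twist1*, the members called against 1 dpi, the value with only the 1 dpi libraries of the later day's pattern is given too. This match is not complete. Replicate 1 of 1 dpi also held 10.47 CPM of Y-linked genes, against at most 0.78 CPM at 4 and 6 dpi. Replicate 2 of 1 dpi held 20.93 CPM of *Xist*, against at most 0.14 CPM at 3 dpi. In the count table, the columns of the 3 dpi libraries are named in another form than those of all other days, which share a numbered series. What this difference stands for is not given in the sources used here. It coincides with 3 dpi and cannot be told apart from that day. Replicates are separate samples by their labels, and p-values measure the spread between these samples.

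Over the whole time course, 4 of the 10 members passed an adjusted p of 0.05 in edgeR's quasi-likelihood test, and 15.0% of all genes tested passed it. These were *Scx* (edgeR adjusted p = 3.3e-06), *Runx1* (7.4e-05), *Snai1* (0.014) and *Twist1* (0.022). The others ranged from 0.16 for *Sox9* to 0.77 for *Zeb2* by edgeR. DESeq2 also called *Sox9* (adjusted p = 0.025), and edgeR without the filter on low counts also called *Snai2* (adjusted p = 0.021). In that unfiltered edgeR fit the adjusted p was far smaller for *Scx* (1.4e-66) and *Runx1* (6.2e-13) and larger for *Sox9* (0.45). The reason for these shifts was not tested. Without replicate 3 of 6 dpi, edgeR also called *Prrx1* (adjusted p = 0.015), against 0.62 and 0.57 without replicate 1 or replicate 2. *Twist1* no longer passed over the time course without replicate 3 (edgeR adjusted p = 0.077) or without replicate 4 of 3 dpi (edgeR adjusted p = 0.15). The level of each factor in every library is plotted by day.

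**Figure D1:**
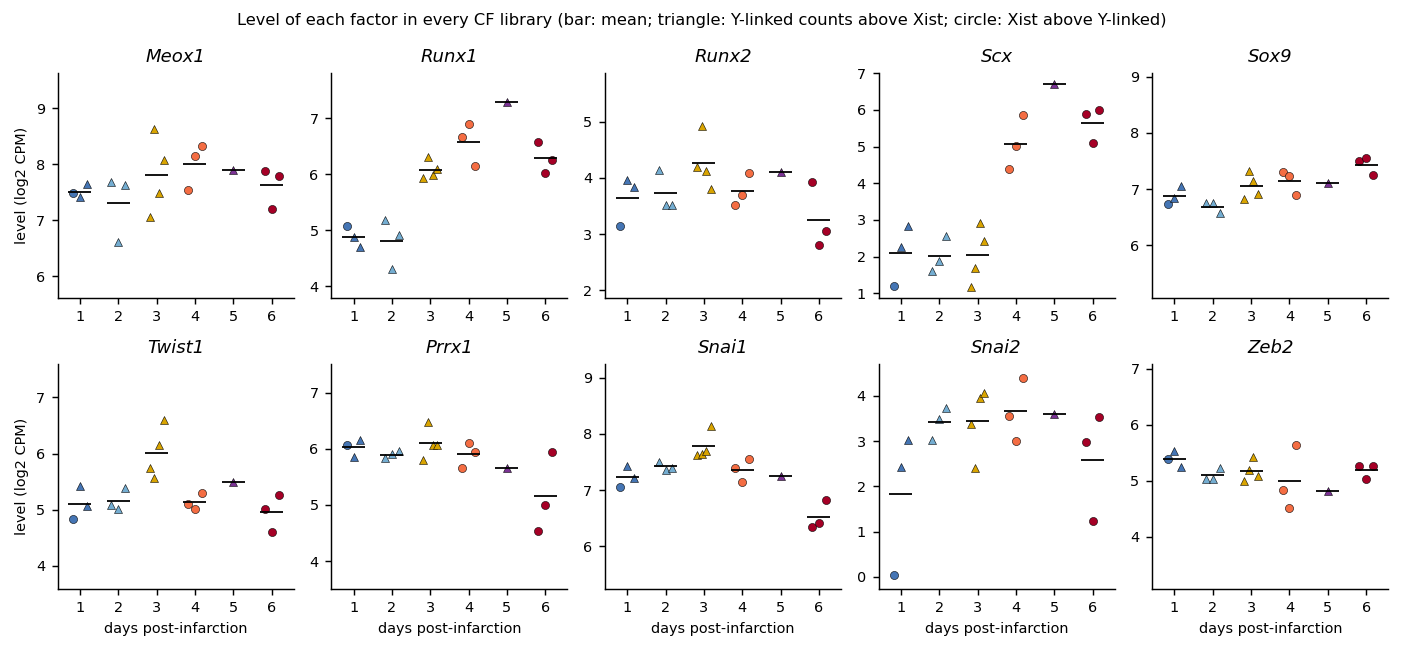
Level of the 10 factors, in log2 CPM, in each of the 17 CF libraries against days post-infarction, with a bar at the mean of each day, triangles where Y-linked counts were above Xist and circles where Xist was above. Every panel spans at least 4 log2 units. Scx stepped up between 3 and 4 dpi and Runx1 between 2 and 3 dpi, Twist1 and Snai1 had their highest mean at 3 dpi, and Zeb2 had the narrowest range of daily means.

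*Runx1* (ENSMUSG00000022952, chromosome 16, 92601466 to 92826149 on GRCm38, minus strand) was low for 2 days and then rose. Its level at 1 dpi was 33.7, 29.6 and 25.9 CPM in replicates 1 to 3, and at 2 dpi it was 36.0, 19.9 and 29.8 CPM. At 3 dpi it was 60.6, 79.2, 63.6 and 68.5 CPM. Each 3 dpi library thus lay above each library of 1 and 2 dpi. At 4 dpi the level was 102, 119 and 70.2 CPM, in the 5 dpi library 155 CPM, and at 6 dpi 95.8, 65.3 and 76.7 CPM. The libraries of 4 and 6 dpi overlapped with each other and with 3 dpi, and all lay above 1 dpi.

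The rise of *Runx1* passed the edgeR test at 3, 4 and 6 dpi. At 3 dpi it was 2.29-fold higher than at 1 dpi (log2 fold change 1.2 ± 0.25 SE, edgeR adjusted p = 0.0061) and 2.38-fold higher than at 2 dpi (1.25 ± 0.25, adjusted p = 0.011). At 4 dpi it was 3.28-fold higher than at 1 dpi (1.71 ± 0.27, edgeR adjusted p = 0.00063) and at 6 dpi 2.67-fold higher (1.42 ± 0.26, adjusted p = 0.0019). From 3 to 4 dpi (0.52 ± 0.24, edgeR adjusted p = 0.26) and from 4 to 6 dpi (-0.29 ± 0.26, adjusted p = 0.54) the differences did not pass.

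With the 2 libraries of 1 dpi that share the pattern of 3 dpi, *Runx1* was 1.28 higher at 3 dpi on the log2 scale (edgeR adjusted p = 0.02). With only replicate 1 of 1 dpi, which shares the pattern of 4 and 6 dpi, the estimates were 1.51 and 1.22 and no longer passed (edgeR adjusted p = 0.11 and 0.096), with this lone library assumed to vary like the others. Without replicate 3 of 1 dpi the rise at 3 dpi was 1.09 (edgeR adjusted p = 0.051), and without replicate 2 of 2 dpi the rise from 2 to 3 dpi was 1.04 (edgeR adjusted p = 0.099). The summed level of 6 mural cell markers also rose. It was 41.0 to 76.8 CPM at 1 dpi, 92.1 to 132 CPM at 3 dpi and 101 to 158 CPM at 4 dpi. In the 5 dpi library it was 208 CPM, and at 6 dpi 142 to 173 CPM. Of the 6 mural genes, edgeR called *Cspg4* and *Notch3* higher than at 1 dpi at 3 dpi, and these and *Rgs5* at 4 and 6 dpi. Of all genes, 4.33% were called higher at 3 dpi, 2.43% at 4 dpi and 6.91% at 6 dpi. At 3 dpi, the log2 differences of the others were 1.08 for *Rgs5*, 0.97 for *Kcnj8*, 1.08 for *Abcc9* and -0.74 for *Myh11*, the smooth muscle myosin. At 4 and 6 dpi they were -0.09 and -0.29 for *Kcnj8*, 0.69 and 0.41 for *Abcc9*, and -0.31 and 0.43 for *Myh11*. The part of mural cells in the rise was not tested. In bulk RNA, more cells with a transcript and more transcript per cell cannot be told apart, which holds for every member.

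*Runx2*, the factor of bone formation and the close relative of *Runx1*, passed in no comparison by edgeR. Its level ranged from 8.74 to 15.4 CPM at 1 dpi, from 13.8 to 30.4 CPM at 3 dpi and from 6.82 to 15.0 CPM at 6 dpi, and the days overlapped. Against 1 dpi it differed by 0.63 ± 0.33 at 3 dpi (edgeR adjusted p = 0.27) and by -0.36 ± 0.35 at 6 dpi (adjusted p = 0.55). *Runx2* shares exon bases with *Runx2os1* on the opposite strand, which had 1825 counts in all against 3549, and use of the strand in counting is not given in the sources used here.

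*Scx* (ENSMUSG00000034161, chromosome 15, 76457452 to 76459458, plus strand), the factor of tendon progenitors, had the largest change of the 10. For 3 days it stayed low. It was 2.15, 4.70 and 6.99 CPM at 1 dpi, 2.89, 3.56 and 5.71 CPM at 2 dpi and 2.13, 3.06, 7.51 and 5.21 CPM at 3 dpi. It then reached 20.65, 32.4 and 57.6 CPM at 4 dpi, 104 CPM in the 5 dpi library and 58.8, 33.9 and 63.6 CPM at 6 dpi. All 7 libraries from 4 dpi on lay above all 10 earlier ones. The lowest value behind these levels was 17 counts, in replicate 1 of 1 dpi, and the highest 996 counts, in the 5 dpi library.

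By edgeR, *Scx* was 8.18-fold higher at 4 than at 3 dpi (log2 fold change 3.03 ± 0.44 SE, adjusted p = 0.00089). Against 1 dpi it differed by -0.23 ± 0.47 at 2 dpi and by -0.08 ± 0.44 at 3 dpi. It was 7.74-fold higher at 4 dpi (2.95 ± 0.48, edgeR adjusted p = 0.0011) and 11-fold higher at 6 dpi (3.46 ± 0.49, adjusted p = 0.00018). From 4 to 6 dpi the difference of 0.50 ± 0.44 did not pass (edgeR adjusted p = 0.54). These calls were kept under every alternative tried, with log2 estimates of 2.45 to 4.08 at 4 dpi and of 3.15 to 4.59 at 6 dpi against 1 dpi.

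The step in *Scx* coincides with the change of the sex-linked pattern, from which it cannot be told apart. The highest value of all was in the 5 dpi library, which has the pattern of 3 dpi and no replicate. With only replicate 1 of 1 dpi, the library of the same pattern, the rise was 4.08 at 4 dpi (edgeR adjusted p = 0.028) and 4.59 at 6 dpi (edgeR adjusted p = 0.0089). Cardiomyocyte markers also moved between these days, with a summed level of 7.89 to 11.5 CPM at 3 dpi, 43.1 to 72.8 CPM at 4 dpi and 87.0 to 212 CPM at 6 dpi, and 4 of 6 were called higher at 4 than at 3 dpi. In the 5 dpi library their sum was 13.7 CPM, beside the highest *Scx* level, while its sums of mural (208 CPM) and glial markers (22.3 CPM) were the highest of the 17 libraries. The part of these cells in the *Scx* level was not tested. *Scx* lies within the span of *Bop1*, on the opposite strand and with no shared exon bases. *Bop1* was 35.9, 95.96, 27.1 and 38.4 CPM at 3 dpi and 29.0, 33.0 and 42.0 CPM at 4 dpi, and these days overlapped.

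*Twist1* (ENSMUSG00000035799, chromosome 12, 33957671 to 33959829, plus strand) had a peak at 3 dpi. Its level was 28.2, 42.5 and 33.3 CPM at 1 dpi and 34.0, 32.3 and 41.6 CPM at 2 dpi. At 3 dpi it was 53.3, 47.1, 71.2 and 96.0 CPM. All 4 libraries of 3 dpi lay above those of 1, 2, 4 and 6 dpi, where the highest value was 42.5 CPM. It was 34.5, 32.2 and 38.89 CPM at 4 dpi, 44.7 CPM in the 5 dpi library and 32.4, 24.0 and 38.4 CPM at 6 dpi.

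By edgeR, *Twist1* was 1.92-fold higher at 3 than at 1 dpi (0.94 ± 0.26 on the log2 scale, adjusted p = 0.033). The differences from 2 to 3 dpi (0.89 ± 0.26, edgeR adjusted p = 0.064) and from 3 to 4 dpi (-0.93 ± 0.26, adjusted p = 0.061) were of the same size but did not pass. DESeq2 called both (adjusted p = 0.016 and 0.014), as did edgeR without the filter on low counts (adjusted p = 0.033 and 0.024) and edgeR without replicate 2 of 3 dpi (adjusted p = 0.018 and 0.015). At 4 and 6 dpi it differed from 1 dpi by 0.02 ± 0.27 and -0.14 ± 0.27. The call at 3 dpi rests on few libraries. The log2 estimate was 0.90 without replicate 3 (adjusted p = 0.073) and 0.70 without replicate 4 of 3 dpi (adjusted p = 0.12), and 0.80 without replicate 1 of 1 dpi, which leaves the libraries of the same pattern (adjusted p = 0.15), and 0.90 without replicate 3 of 1 dpi (adjusted p = 0.13), all by edgeR. In a fit on these 2 days alone it was 0.95 (edgeR adjusted p = 0.097).

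Replicates 3 and 4 of 3 dpi, which held the 2 highest *Twist1* levels, also held the most macrophage RNA. The summed level of 10 macrophage and leukocyte markers was 219 and 230 CPM in them, 54.3 and 46.5 CPM in replicates 1 and 2 of 3 dpi, 79.2 CPM at 5 dpi and 8.83 to 36.5 CPM at 1, 2, 4 and 6 dpi. *Lyz2*, *C1qa* and *C1qb* were the 3 called higher at 3 than at 1 dpi of 8 tested, while *Ptprc* was 2.75 and 2.13 CPM in these libraries. With both left out, a choice made after these values were seen, *Twist1* was 0.53 higher at 3 than at 1 dpi (edgeR adjusted p = 0.3) and 0.49 higher than at 2 dpi (edgeR adjusted p = 0.38). Leaving out the 2 highest levels of a day lowers its estimate in any case, so this fit cannot show a part of macrophage RNA. In the same fit *Runx1* was 1.24 higher (edgeR adjusted p = 0.024) at 3 than at 1 dpi. Its highest 3 dpi level, 79.2 CPM, was in replicate 2, which was kept. The part of macrophage RNA in the *Twist1* level was not tested.

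*Snai1* (ENSMUSG00000042821, chromosome 2, 167538195 to 167542814, plus strand) drifted up to 3 dpi and down to 6 dpi. Its level was 132, 172 and 148 CPM at 1 dpi and 180.4, 164 and 169 CPM at 2 dpi. At 3 dpi it was 197, 199.9, 207 and 284 CPM, above every library of the other days. At 4 dpi it was 168, 142 and 187 CPM, in the 5 dpi library 153 CPM, and at 6 dpi 80.9, 84.9 and 114 CPM, below every library of the other days.

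The time course of *Snai1* passed the edgeR test (adjusted p = 0.014), while none of the 7 comparisons of days did. The lowest day, 6 dpi, was not tested against the highest, 3 dpi. The differences were 0.56 ± 0.22 from 1 to 3 dpi (edgeR adjusted p = 0.13), -0.69 ± 0.23 from 1 to 6 dpi (adjusted p = 0.057) and -0.83 ± 0.23 from 4 to 6 dpi (adjusted p = 0.085). DESeq2 called these differences (adjusted p = 0.044, 0.022 and 0.014), and without replicate 2 of 3 dpi edgeR called the second and the third (adjusted p = 0.028 and 0.033). With only replicate 1 of 1 dpi the difference at 6 dpi was -0.51 (edgeR adjusted p = 0.39), and with only the other 2 that at 3 dpi was 0.46 (edgeR adjusted p = 0.36). The time course no longer passed without replicate 1 (edgeR adjusted p = 0.079) or without replicate 2 of 6 dpi (edgeR adjusted p = 0.067). Nor did it pass without both replicates 3 and 4 of 3 dpi, which held the 2 highest *Snai1* levels (edgeR adjusted p = 0.062). Without replicate 3 of 6 dpi, the fall from 1 to 6 dpi was -0.86 (edgeR adjusted p = 0.024). From 4 to 6 dpi, without that library, it was -1.0 (edgeR adjusted p = 0.02). The highest value, that of replicate 4 of 3 dpi, stood apart from the other 3 and was in the library with the most macrophage marker RNA. The plot of levels beside marker sums shows this library at the upper right for both *Twist1* and *Snai1*.

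**Figure D2:**
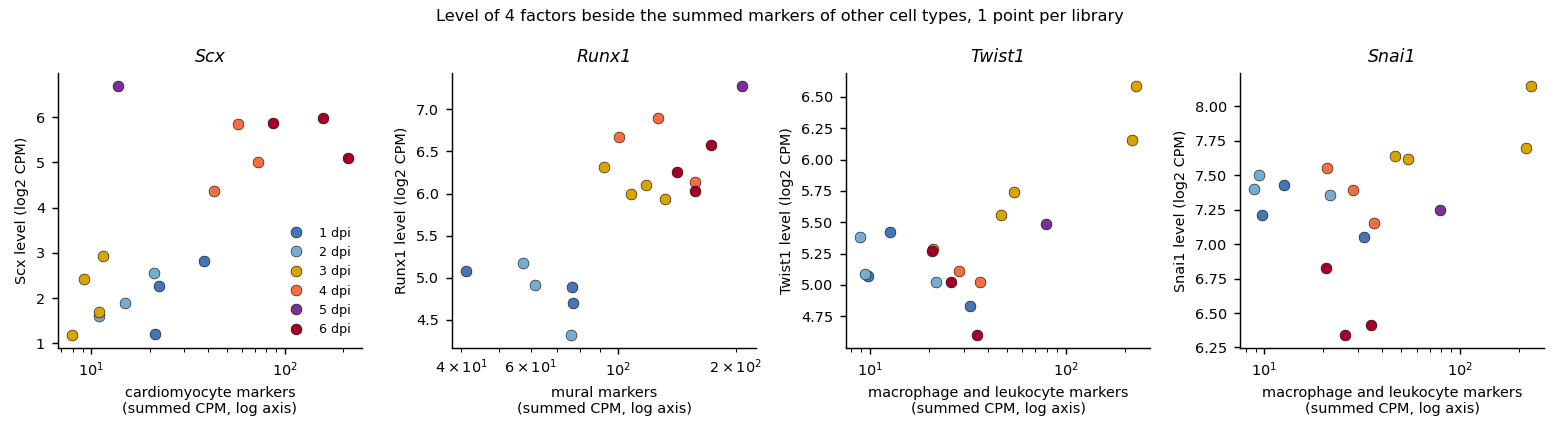
Level of Scx, Runx1, Twist1 and Snai1 (log2 CPM) against the summed CPM, on a log axis, of markers of cardiomyocytes, mural cells, and macrophages and leukocytes, with 1 point per library coloured by day. The 5 dpi library has the highest Scx level at a cardiomyocyte sum of 13.7 CPM, and 3 dpi replicates 3 and 4 have the highest Twist1 levels at macrophage sums of 219 and 230 CPM.

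*Snai2*, the relative of *Snai1* also called Slug, passed in no comparison by edgeR among the 14030 genes. It was 0.89, 5.24 and 7.97 CPM at 1 dpi, 8.03 to 13.1 CPM at 2 dpi, 5.15 to 16.7 CPM at 3 dpi, 7.85 to 20.9 CPM at 4 dpi and 2.22 to 11.5 CPM at 6 dpi. The value of 0.89 CPM is 7 counts, in replicate 1 of 1 dpi. The log2 differences against 1 dpi, 1.14 ± 0.60 at 2, 1.28 ± 0.57 at 3 and 1.47 ± 0.60 at 4 dpi, did not pass (edgeR adjusted p = 0.73, 0.18 and 0.24). Without the filter on low counts, edgeR called *Snai2* at 3 dpi (1.29, adjusted p = 0.015) and at 4 dpi (1.45, adjusted p = 0.012). With only the other 2 libraries of 1 dpi, the difference at 3 dpi was 0.83 (edgeR adjusted p = 0.46), and with only replicate 1 of 1 dpi that at 4 dpi was 3.9 (edgeR adjusted p = 0.093).

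*Zeb2*, a zinc-finger repressor of the same E-boxes, had the narrowest range of daily means, from 4.81 log2 CPM in the 5 dpi library to 5.39 ± 0.14 (SD, n = 3) at 1 dpi. Its differences against 1 dpi lay between -0.32 and -0.20 on the log2 scale, with SEs of 0.24 to 0.26. Its exons share bases with the antisense gene *Zeb2os*, which had 1786 counts in all against 8838.

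*Sox9*, the cartilage factor, was between 107 and 132 CPM at 1 dpi and between 153 and 189 CPM at 6 dpi. The libraries of these days did not overlap, and the difference of 0.56 ± 0.22 on the log2 scale did not pass by edgeR (adjusted p = 0.098). DESeq2 gave 0.60 and an adjusted p of 0.028, and edgeR without replicate 2 of 3 dpi an adjusted p of 0.046. With only replicate 1 of 1 dpi it was 0.69 (edgeR adjusted p = 0.24).

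*Prrx1*, which marks mesenchymal progenitors, was 66.9, 57.7 and 70.6 CPM at 1 dpi and 23.1, 31.5 and 61.3 CPM at 6 dpi. Of the 6 dpi libraries, 2 were below and 1 within the range of 1 dpi, and the difference of -0.75 ± 0.29 did not pass by edgeR (adjusted p = 0.095). It was -0.49 without replicate 1 of 6 dpi (edgeR adjusted p = 0.36), -0.63 without replicate 2 (edgeR adjusted p = 0.29), -1.25 without replicate 3 (edgeR adjusted p = 0.0035), and with only replicate 1 of 1 dpi -0.79 (edgeR adjusted p = 0.29). Replicate 2 of 6 dpi had the highest sum of mesothelial markers, 599 CPM, against 82.2 and 70.5 CPM in the other 2, and the part of these cells was not tested.

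*Meox1*, known as a regulator of the response of CFs to TGF-β, was already between 170.1 and 199 CPM at 1 dpi. It ranged from 97.9 CPM in a 2 dpi library to 393 CPM in a 3 dpi library. The largest difference against 1 dpi was 0.52 ± 0.36 at 4 dpi (edgeR adjusted p = 0.55). The 3 dpi libraries alone spanned 133 to 393 CPM.

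The members were also counted by comparison. Between 1 and 2 dpi 0 of 10 members passed by edgeR, 0 had an unadjusted p under 0.05 and DESeq2 called 0, while 0.178% of all genes passed by edgeR. At 3 against 1 dpi 2 of 10 passed by edgeR, *Runx1* and *Twist1*, both higher, with 7.01% of all genes passing, 4.33% higher and 2.68% lower. At 4 against 1 dpi *Scx* and *Runx1* passed, both higher, with 3.02% of all genes passing, 2.43% higher and 0.592% lower. The same 2 passed at 6 against 1 dpi, both higher, where 12.1% of all genes passed, 6.91% higher and 5.21% lower.

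Between neighbouring days, *Runx1* alone passed from 2 to 3 dpi (2.94% of all genes) and *Scx* alone from 3 to 4 dpi (2.71%). From 4 to 6 dpi 0 of 10 passed by edgeR, 2 had an unadjusted p under 0.05 (*Snai1* and *Prrx1*) and DESeq2 called *Snai1*, against 0.513% of all genes by edgeR. The median log2 difference of the 10 against 1 dpi was -0.09 at 2 dpi, 0.49 at 3 dpi, 0.20 at 4 dpi and 0.00 at 6 dpi, beside medians of 0.013, 0.045, 0.007 and 0.027 over all genes. The plot of changes against 1 dpi shows how few members carry the larger values.

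**Figure D3:**
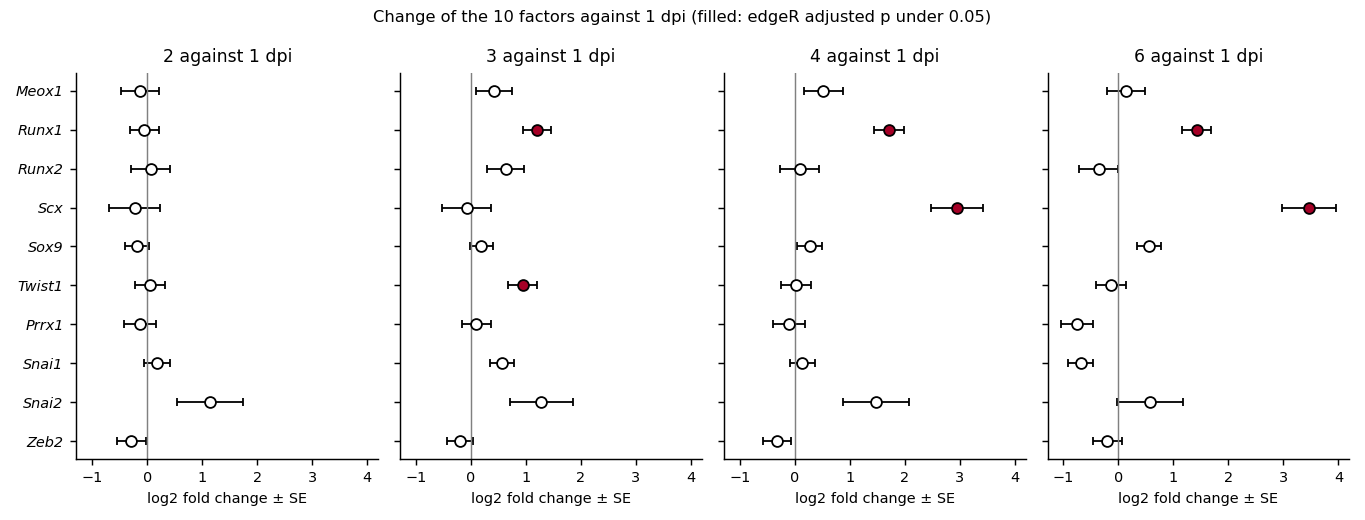
Log2 fold change of the 10 factors against 1 dpi at 2, 3, 4 and 6 dpi, with bars of 1 SE from edgeR's fit, filled where the adjusted p was under 0.05. Runx1 is filled at 3, 4 and 6 dpi, Twist1 at 3 dpi and Scx at 4 and 6 dpi, where it reached 3.46.

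By the first day called against 1 dpi, the order was *Runx1* and *Twist1* at 3 dpi and *Scx* at 4 dpi. By the first day with a mean above the midpoint of the lowest and highest daily means, a description with no test, *Snai2* came at 2 dpi, *Runx1*, *Twist1*, *Meox1* and *Runx2* at 3 dpi, and *Scx* and *Sox9* at 4 dpi. *Snai1*, *Prrx1* and *Zeb2* were above it at 1 dpi, and each was below it at a later day. The highest mean fell at 3 dpi for *Twist1*, *Snai1*, *Runx2* and *Prrx1*, at 4 dpi for *Meox1* and *Snai2*, at 6 dpi for *Sox9* and at 1 dpi for *Zeb2*. For *Runx1* and *Scx* it fell on the 5 dpi library, which has no replicate. Without that library it fell at 4 dpi for *Runx1* and at 6 dpi for *Scx*.

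The paralogues of the members were listed by family, as *Meox2*, *Runx3*, *Sox5*, *Sox6*, *Sox8*, *Sox10*, *Twist2*, *Prrx2*, *Snai3* and *Zeb1*. Of these, 8 were tested, and *Runx3* and *Snai3* had 28 and 12 counts in all. *Prrx2*, the relative of *Prrx1*, was the gene of this list that passed in any comparison. It was between 9.88 and 16.9 CPM in every library to 3 dpi and between 30.2 and 45.6 CPM in every later one. It was 2.63-fold higher at 4 than at 3 dpi (log2 1.40 ± 0.22 SE, edgeR adjusted p = 0.0018) and 3.83-fold higher at 6 than at 1 dpi (1.94 ± 0.24, edgeR adjusted p = 4.8e-05). The 2 Prrx genes thus had opposite signs at 6 dpi, though that of *Prrx1* did not pass. *Twist2* had the opposite sign to *Twist1* at 3 against 1 dpi, with -0.82 ± 0.28 (edgeR adjusted p = 0.084), and *Zeb1* differed by -0.19 ± 0.30. Against 1 dpi, 1 of the 8 was called at 4 and at 6 dpi, with median log2 differences of -0.15 and 0.05, where 3.02% and 12.1% of all genes were called.

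Among 10 partners and inhibitors, the E protein *Tcf3*, a dimer partner of TWIST1 and SCX, had its highest mean at 3 dpi, as *Twist1* did. It was 31.2 to 38.0 CPM at 1 dpi, 60.1 to 75.9 CPM at 3 dpi, 31.97 to 46.04 CPM at 4 dpi and 41.96 to 61.4 CPM at 6 dpi, where it overlapped with 3 dpi. The rise from 2 to 3 dpi was 0.96 ± 0.21 on the log2 scale (edgeR adjusted p = 0.018) and the fall from 3 to 4 dpi was -0.89 ± 0.21 (edgeR adjusted p = 0.029). The other E proteins *Tcf4* and *Tcf12* were not called. *Id1*, an inhibitor of E proteins, was higher than at 1 dpi at 3 dpi (0.90 ± 0.22, edgeR adjusted p = 0.018), 4 dpi (0.91 ± 0.23, edgeR adjusted p = 0.035) and 6 dpi (1.05 ± 0.23, edgeR adjusted p = 0.0066). *Id3* was higher at 6 dpi (0.96 ± 0.29, edgeR adjusted p = 0.036). *Cbfb*, the partner of the RUNX factors, was not called at 3 or 4 dpi and was lower at 6 than at 1 dpi (-1.33 ± 0.41, edgeR adjusted p = 0.041), with 8.33, 5.45 and 20.4 CPM against 25.9 to 32.9 CPM. In all, 2 of the 10 were called higher at 3 dpi, 1 higher at 4 dpi and 2 higher and 1 lower at 6 dpi against 1 dpi, with median log2 differences of 0.08, 0.13 and -0.02, where 7.01%, 3.02% and 12.1% of all genes were called.

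Of 22 genes listed here as known targets of these factors or as genes of the activated state, 17 were tested. Against 1 dpi, 8 were higher and 1 lower at 3 dpi, 9 higher and 1 lower at 4 dpi, and 13 higher and 1 lower at 6 dpi, with median log2 differences of 1.61, 2.00 and 2.39. Of all genes, 4.33% were higher and 2.68% lower at 3 dpi, 2.43% and 0.592% at 4 dpi, and 6.91% and 5.21% at 6 dpi. The medians were the same when *Col2a1*, which had no count at 1 dpi, was set at its lower bound. The list was drawn up with earlier results of these data known and holds *Col1a1*, whose promoter drives the GFP of the sort. Its genes were called at different days.

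The collagens *Col1a1*, *Col1a2* and *Col3a1* and *Postn*, *Acta2*, *Cdh2* and *Cthrc1* were called higher at 3 than at 1 dpi. *Cthrc1*, a secreted protein of activated CFs, rose by 3.28 ± 0.29 on the log2 scale from 1 to 3 dpi (edgeR adjusted p = 1.1e-06), and *Acta2*, smooth muscle actin, by 2.56 ± 0.35 (edgeR adjusted p = 0.00011). *Postn*, the matrix protein periostin, rose by 1.74 ± 0.33 (edgeR adjusted p = 0.0031), and *Cdh2*, N-cadherin, by 2.12 ± 0.39 (edgeR adjusted p = 0.0023). *Cdh1*, E-cadherin, the classical target of the SNAI and ZEB repressors, was not tested, with 41 counts in all and counts in 4 of 17 libraries. From 4 to 6 dpi *Acta2* had a difference of -0.96 ± 0.34 (edgeR adjusted p = 0.14).

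Of the tendon and cartilage genes of the list, *Fmod* and *Col11a1* were called against 1 dpi at 4 dpi, and *Tnmd*, *Acan*, *Comp*, *Col2a1* and *Col11a2* at 6 dpi. *Fmod*, fibromodulin, a proteoglycan of tendon, was 4.43 to 10.6 CPM at 3 dpi, 31.7 to 62.1 CPM at 4 dpi and 230.0 to 312 CPM at 6 dpi. It rose by 2.82 ± 0.38 from 3 to 4 dpi (edgeR adjusted p = 0.00046) and by a further 2.6 ± 0.41 to 6 dpi (edgeR adjusted p = 0.008). *Tnmd*, tenomodulin, a membrane protein of tendon cells, was at most 0.48 CPM in the libraries to 3 dpi and 7.49, 8.01 and 10.1 CPM at 6 dpi. It was 5.25 ± 0.99 higher at 6 than at 1 dpi (edgeR adjusted p = 0.0021). Every *Tnmd* value of 4 dpi or later, the 5 dpi library included, lay above every earlier value.

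The collagen *Col11a1* rose by 3.15 ± 0.60 from 3 to 4 dpi (edgeR adjusted p = 0.0078). *Acan*, aggrecan of cartilage, was at most 0.64 CPM to 3 dpi and 7.23, 8.61 and 13.4 CPM at 6 dpi, 5.45 ± 1.14 above 1 dpi on the log2 scale (edgeR adjusted p = 0.0043). *Comp*, cartilage oligomeric matrix protein, was 3.26 ± 0.57 higher at 6 than at 1 dpi (edgeR adjusted p = 0.0012). *Col2a1*, the main collagen of cartilage, had 194 counts at 6 dpi and none at 1 dpi, at least 73.8-fold higher against a floor of 3 counts over the group. Replicate 3 of 6 dpi held 147 of these counts, and without it, a choice made after the values were seen, the bound was 25.4-fold.

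Among the bone genes of the list *Alpl* and *Spp1* passed. *Alpl*, alkaline phosphatase, was lower than at 1 dpi at 3, 4 and 6 dpi, by -2.16 ± 0.30, -1.94 ± 0.32 and -2.38 ± 0.33 (edgeR adjusted p = 0.00013, 0.0014 and 0.00014). *Spp1*, osteopontin, was 2.84 ± 0.56 higher at 3 than at 1 dpi (edgeR adjusted p = 0.0037), and it fell by 2.58 ± 0.57 from 4 to 6 dpi (edgeR adjusted p = 0.048). Macrophages also express *Spp1*. *Ibsp*, *Sp7* and *Mmp13* had 0, 14 and 6 counts in all. The 3 lists are plotted gene by gene.

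**Figure D4:**
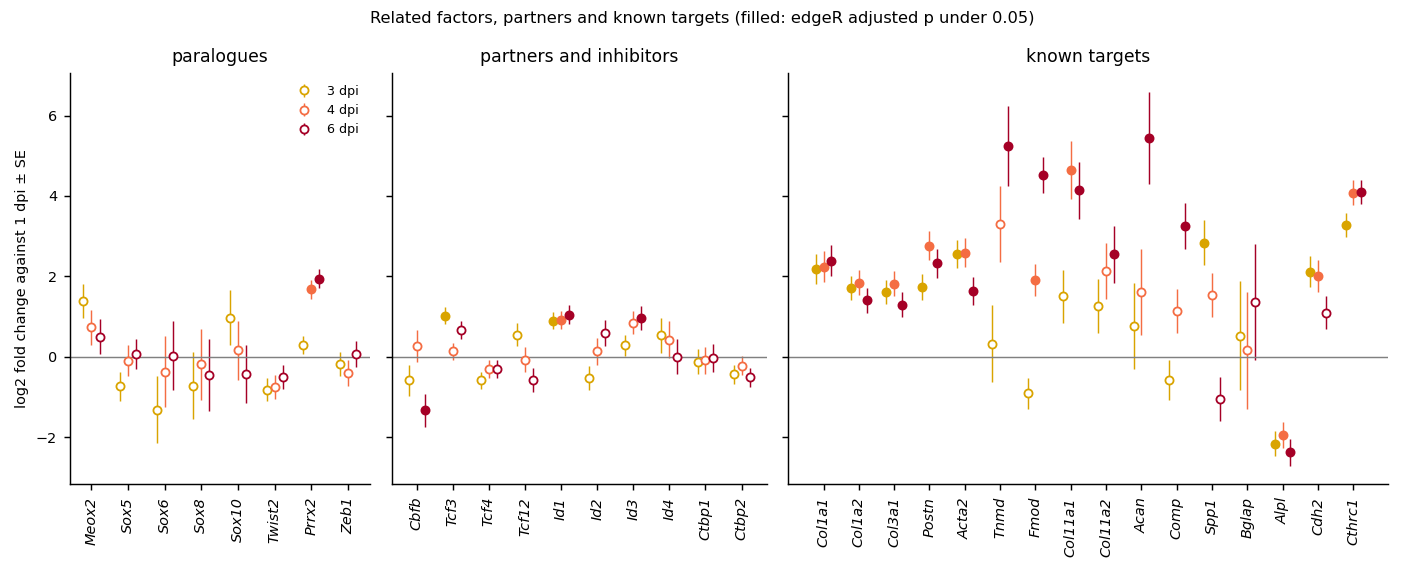
Log2 fold change against 1 dpi at 3, 4 and 6 dpi, with bars of 1 SE from edgeR's fit, for the tested paralogues, partners and inhibitors, and known targets, filled where the adjusted p was under 0.05. Col2a1 is left out because it had no count at 1 dpi. Prrx2 is filled at 4 and 6 dpi among the paralogues, and most of the known targets lie above 0 while Alpl lies below.

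For each member that passed the time course test, the genes most like it were taken by Pearson's r of log2 CPM over the 17 libraries among 8918 genes, as a description. The libraries are grouped by day, and every day but 1 dpi holds a single sex-linked pattern, so these r have no p. The 3 dpi libraries also share their own form of column name. *Runx1* was closest to *Col12a1* (r = 0.919), *Cthrc1* (0.915) and *Tagln* (0.905), a fibrillar-associated collagen, the secreted protein above and the actin-binding protein transgelin. *Scx* was closest to *Tgfb3* (0.961), the growth factor TGF-β3, *Neo1* (0.959), the receptor neogenin, and *Rflnb* (0.956), the filamin partner refilin B. *Twist1* was closest to *Hikeshi* (0.900), *As3mt* (0.895) and *Rtn4* (0.892), and *Snai1* to *Mfsd14a* (0.909), *Tpm4* (0.909), a tropomyosin, and *Rtn4* (0.906), which encodes the reticulon Nogo. *Rtn4* thus stood among the 3 closest genes of both factors that were highest at 3 dpi.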

How the data were processed

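MARS-seq libraries of sorted CFs were read as raw counts per gene. According to the labels and the study's methods, the authors used bcl2fastq (1.2.4) for demultiplexing, STAR for alignment to mm10 and featureCounts for counting per Ensembl gene, and deposited these counts without normalization. No collapsing of PCR copies is given in the sources used here. Total counts are 8021815 to 22029938 per library. The 14030 genes that reached 10 counts in 3 or more libraries entered edgeR's (4.0.16) quasi-likelihood F-test in R (4.3.3) on TMM library sizes. The model had 6 days over all 17 libraries, no block, Benjamini-Hochberg adjustment and a threshold of 0.05. The SE is the log2 fold change over the square root of F. Levels are CPM on TMM library sizes, and log2 CPM has a prior count of 2. Replicate pairs of a day differed by more than sampling noise in all 18 pairs. Positions are from GENCODE on GRCm38 and promoters from RefSeq. Alternatives were other normalizations, filters and spread estimates, DESeq2 (1.42.0), a replicate block, fits on only the days compared or on 1 dpi libraries of the same sex-linked pattern, and each library left out. Named genes are the members, fixed lists of paralogues, partners, targets and cell type markers, and the 3 genes most like each member called over the course. The members and lists were chosen with earlier results of these data known.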

Additional observations from a re-analysis of the deposited data

Results flagged for a closer look

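*Snai1* in replicate 4 of 3 dpi stood apart from the other 3 libraries of that day. Its level was 284 CPM against 197, 199.9 and 207 CPM. On the log2 scale, the gap to the nearest library was 0.861 of the whole range. Such a ratio was computed for each of the 10 members at 3 dpi, the only day with more than 3 libraries, and 1 passed, where chance gives about 1 in 20 groups. The same library had the highest *Twist1* level (96.0 CPM) and the highest sum of macrophage and leukocyte markers (230 CPM).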

How the results depend on the processing

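No value of a member changed sign past the threshold under any alternative. *Scx* kept its calls in every fit. The other counts of members called, main value first, changed as follows. With the replicate number as a block, 2 in place of 4 passed over the time course (*Runx1* and *Scx*) and 1 in place of 2 at 3 against 1 dpi (*Runx1*). With this block edgeR gave adjusted p = 0.055 for *Snai1* and 0.14 for *Twist1* over the time course, and 0.12 for *Twist1* at 3 against 1 dpi (log2 0.69), and no other count of members moved by over 1.5 times. Same-numbered libraries of different days had a mean correlation of 0.011 in 30 pairs, from -0.108 to 0.2, and the closest library of another day had the same number for 8 of 16 libraries, a hint from the data and not from the design. The numbers were not taken as pairs. With 3 dpi replicates 3 and 4 left out together, chosen after seeing the data, 2 passed over the time course and 1 at 3 against 1 dpi. At 3 against 1 dpi 1 passed in a fit on these 2 days alone. With only 1 dpi libraries of the later day's sex-linked pattern 1 passed at 3, at 4 and at 6 dpi. DESeq2 called 4 at 6 against 1 dpi, 2 at 3 against 2 dpi, 2 at 4 against 3 dpi and 1 at 6 against 4 dpi (main 2, 1, 1 and 0), and without the filter on low counts 2 passed at 3 against 2 and 2 at 4 against 3 dpi. Leaving out each library in turn gave 0 to 2 at 3 against 1 dpi (0 without 1 dpi replicate 3), 2 to 4 at 6 against 1 dpi (4 without 3 dpi replicate 2 or 6 dpi replicate 3), 0 to 2 at 3 against 2 dpi (0 without 2 dpi replicate 2), 1 to 2 at 4 against 3 dpi and 0 to 2 at 6 against 4 dpi (2 without 6 dpi replicate 3). The cause of these changes was not tested. The day of the highest mean was kept for 10 members under either other scaling and for 8 without the 5 dpi library. With 3 or 4 libraries a day, and 1 at 5 dpi, differences of *Meox1* and *Runx2* could not be told from the spread between libraries.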
